A study of Rattus norvegicus with 52 samples.

Results

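The 8 genes described here, out of 17356 genes in the count tables, were Aoc1, Astn2, Klk1c9, Sult5a1, Dpep1, Pcsk2, Ptpru and Ly6g6e. They were chosen by their symbols because they showed some of the largest differences between Cdkn1b-/- and Cdkn1b+/+ luminal progenitors (LP) at 9 weeks of age, so their values in those libraries are a description with no test. The tests concern the same genes in the populations, ages, treatments and strains that the choice did not use. RNA was sequenced from fluorescence-sorted mammary epithelial cells of virgin female rats in 48 libraries of 24 groups.

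Cdkn1b-/- rats carried either of 2 frameshift deletions, named DEL-32 and DEL-65, which per the series' design text contributed in equal parts to both genotypes unless stated otherwise. The deletions were made in Sprague-Dawley zygotes and bred to the ACI strain, and the Cdkn1b+/+ rats were littermates from crosses of heterozygotes. Per the paper, glands for sorting came from crosses at an early and at a later backcross generation. The labels do not give the generation of a library. All Cdkn1b-/- rats had cataracts. At 9 weeks, basal cells (Cd24+ Cd29 high), mature luminal cells (Cd24+ Cd29 low, Cd49b- PNA-) and LP sorted as PNA+ or as Cd49b+ gave 2 libraries per genotype and population. At 4 weeks, basal cells gave 3 Cdkn1b+/+ and 2 Cdkn1b-/- libraries and luminal cells gave 3 per genotype. At 6 weeks, basal cells gave 3 and 2 libraries and luminal cells 2 per genotype. Per the paper, both of these younger groups covered a range of ages. Their titles carry a number in the animal name. It is lower for 1 Cdkn1b+/+ rat at 4 weeks and 1 Cdkn1b-/- rat at 6 weeks than for the others of that group. Whether this number is an age is not stated. Age may thus have differed within these groups and between the genotypes, and its part was not tested. A separate experiment, for which no Cdkn1b deletion is stated, compared ACI with BN rats, untreated (Control) or treated with estradiol (E2), in basal and luminal cells. Per the paper, implants that were empty or held E2 were placed at 9 weeks, and they release hormone for 3 weeks. The labels give no age at collection. The titles of the luminal libraries of this experiment carry CD49b and PNA, and whether these cells were positive for the markers, as LP are, is not stated. It had 2 libraries per ACI group and 1 per BN group, and the BN labels name 2 animals per library.

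p27, the product of Cdkn1b, binds and inhibits cyclin-dependent kinases and holds cells in quiescence. Basal (myoepithelial) cells of the mammary gland contract to eject milk, luminal cells line the ducts and alveoli, and LP give rise to the milk-producing alveolar cells. The 8 genes belong to different families. Aoc1 encodes diamine oxidase, a secreted enzyme that oxidizes histamine and putrescine, Sult5a1 a cytosolic sulfotransferase and Dpep1 a membrane dipeptidase that acts in glutathione and leukotriene breakdown. Klk1c9 belongs to the expanded group of glandular kallikreins, secreted serine proteases of the rat. Astn2 encodes astrotactin 2, a membrane protein known from neuronal migration. Pcsk2 encodes proprotein convertase 2, which cleaves prohormones in secretory granules, Ptpru a receptor-type tyrosine phosphatase and Ly6g6e a small surface protein of the Ly6 family.

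Counts on genes per library ranged from 21545344 to 33859550 at 9 weeks, from 14674040 to 23045345 at 4 weeks, from 7985619 to 16390460 at 6 weeks and from 13659389 to 25280421 in the E2 experiment. Levels are given as CPM, counts scaled to the library's total on genes. Cdkn1b itself was at 2.05 ± 0.461 CPM in Cdkn1b-/- LP and at 9.77 ± 2.49 CPM in Cdkn1b+/+ LP (SD, n = 4 each), and a transcript with a small deletion can still be counted. In mature luminal and basal cells of 9 weeks Cdkn1b was lower without overlap but was not called (log2 fold change -1.37 and -1.59, adjusted p 0.788 and 0.661, edgeR). At 4 and 6 weeks the Cdkn1b ranges of the genotypes lay closer, with fitted log2 differences between -1.24 and -0.50 and adjusted p from 0.785 to 1.0 (edgeR). At 4 weeks the ranges did not overlap in luminal or basal cells. In basal cells of 6 weeks they overlapped, with 1 Cdkn1b+/+ library at 3.13 CPM, under both Cdkn1b-/- libraries (11.1 and 13.1 CPM). In luminal cells of 6 weeks 1 Cdkn1b-/- library, at 30.2 CPM, was close to a Cdkn1b+/+ one at 31.4 CPM. Summed CPM of 9 basal markers lay between 24388 and 33168 in basal libraries of 9 weeks and between 262 and 3372 in the luminal ones. Summed CPM of 9 hormone-sensing luminal markers, which mark mature luminal cells, was 269 to 280 in the libraries labelled Cdkn1b+/+ mature luminal and higher, 471 to 774, in Cdkn1b+/+ LP, with no overlap, so these markers went against the label. The libraries are called mature luminal here after their label and gate alone. Among the other libraries, 1 Cdkn1b-/- luminal library of 6 weeks held 7083 CPM of adipocyte markers against 137 in the other, and the basal markers of the ACI E2 basal libraries were 2967 and 17446 CPM.

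Promoter sequences, from 250 bases before to 50 after the annotated transcript start, were found in the RefSeq table of build GRCr8 for 6 of the 8 genes. They are shown for Sult5a1 and Dpep1, which lie next to each other and were higher together, and for Aoc1 and Pcsk2, the genes of this set with the largest difference in each direction among those with a listed promoter. Sult5a1 lies at chr19:68112607-68112906 on the minus strand, Dpep1 at chr19:68127908-68128207 on the plus strand, Aoc1 at chr4:79142876-79143175 on the plus strand and Pcsk2 at chr3:151333688-151333987 on the plus strand. Capitals mark matches to CCAAT (in Sult5a1 and Pcsk2) and to TATAAA (in Aoc1), on either strand.
Sult5a1: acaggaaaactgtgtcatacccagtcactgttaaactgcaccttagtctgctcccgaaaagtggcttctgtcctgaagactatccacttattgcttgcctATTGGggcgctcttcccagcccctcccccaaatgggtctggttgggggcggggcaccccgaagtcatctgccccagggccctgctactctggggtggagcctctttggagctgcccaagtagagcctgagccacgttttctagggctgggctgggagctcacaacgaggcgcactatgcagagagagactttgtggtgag
Dpep1: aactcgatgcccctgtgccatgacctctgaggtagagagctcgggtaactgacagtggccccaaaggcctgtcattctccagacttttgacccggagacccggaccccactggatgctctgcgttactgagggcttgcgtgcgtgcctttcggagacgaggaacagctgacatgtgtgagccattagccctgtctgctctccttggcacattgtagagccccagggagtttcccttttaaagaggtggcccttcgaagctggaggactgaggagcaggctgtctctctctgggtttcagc
Aoc1: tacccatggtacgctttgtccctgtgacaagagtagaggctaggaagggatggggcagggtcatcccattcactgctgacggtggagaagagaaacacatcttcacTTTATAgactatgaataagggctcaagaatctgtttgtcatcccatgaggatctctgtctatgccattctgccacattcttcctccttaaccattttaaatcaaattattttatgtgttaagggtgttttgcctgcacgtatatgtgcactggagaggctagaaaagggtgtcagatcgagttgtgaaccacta
Pcsk2: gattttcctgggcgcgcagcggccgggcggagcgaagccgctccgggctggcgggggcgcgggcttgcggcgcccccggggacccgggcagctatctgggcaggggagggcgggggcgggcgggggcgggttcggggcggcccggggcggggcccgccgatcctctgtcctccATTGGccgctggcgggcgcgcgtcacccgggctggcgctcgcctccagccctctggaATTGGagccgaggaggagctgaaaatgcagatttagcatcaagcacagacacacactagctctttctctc
The motifs searched were TTCNNNGAA (the Stat5 site), ACANNNTGT (the core bound by progesterone and glucocorticoid receptors), the palindromic estrogen response element, TATAAA and CCAAT. Of 33469 promoters of the same length, 8.9% held the Stat5 letters, 6.9% the receptor core, 0.03% the estrogen response element, 14.2% TATAAA and 37.5% CCAAT. None of the 6 promoters held the letters of these first 3 motifs in this window. Aoc1 had TATAAA 144 bases before the start, Sult5a1 had CCAAT 150 bases before it, and Pcsk2 had CCAAT at 77 and 20 bases before it. The G and C content was 74.3% in Astn2, 73.3% in Pcsk2 and 73.3% in Ptpru, with 96.3%, 95.4% and 95.4% of promoters lower, 57.3% in both Sult5a1 and Dpep1, and 44.3% in Aoc1, against a median of 51.7%.

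In LP, 5 of the genes were higher and 3 were lower without Cdkn1b. Each of the 8 had Cdkn1b-/- and Cdkn1b+/+ libraries in separate ranges, as did 17.8% of the 12809 genes with enough counts. Since this contrast chose the genes, that count is no result. Aoc1 was at 5.45 and 23.3 CPM in the Cdkn1b-/- PNA+ libraries and at 5.23 and 20.5 CPM in the Cdkn1b-/- Cd49b+ libraries. In the 4 Cdkn1b+/+ LP libraries Aoc1 had 0 counts in 2 and 0.249 and 0.328 CPM in the others. All 4 Cdkn1b-/- libraries were therefore above every Cdkn1b+/+ library, with means of 13.6 ± 9.62 and 0.144 ± 0.17 CPM (SD, n = 4).

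Klk1c9 was at 3.34 and 63.1 CPM in Cdkn1b-/- PNA+ cells and at 2.33 and 57.7 CPM in Cdkn1b-/- Cd49b+ cells. The Cdkn1b+/+ LP libraries held 8 counts of Klk1c9 in all, and none was above 0.221 CPM. The SD of the Cdkn1b-/- libraries (31.6 ± 33.3 CPM, n = 4) was as large as their mean, because the libraries with replicate number 2 were far above those with number 1. Astn2 was at 12.9 and 24.9 CPM in Cdkn1b-/- PNA+ cells and at 9.54 and 33.7 CPM in Cdkn1b-/- Cd49b+ cells. Every Cdkn1b+/+ LP library was between 0.0984 and 0.418 CPM of Astn2.

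The sulfotransferase and the dipeptidase were present in every LP library of both genotypes. Sult5a1 was at 106 and 213 CPM in PNA+ and at 99.2 and 180 CPM in Cd49b+ cells without Cdkn1b. In Cdkn1b+/+ cells it was at 6.91 and 10.5 CPM in PNA+ and at 12.7 and 13.4 CPM in Cd49b+ cells. The means were 150.0 ± 55.7 and 10.9 ± 2.92 CPM (SD, n = 4), and the lowest Cdkn1b-/- library was well above the highest Cdkn1b+/+ library. Dpep1 was at 24.1 and 37.4 CPM in PNA+ and at 22.2 and 69.6 CPM in Cd49b+ cells without Cdkn1b, and between 3.26 and 11.9 CPM in the 4 Cdkn1b+/+ LP libraries. The library at 69.6 CPM also held the most basal markers of the LP libraries, 3372 CPM against 287 to 1268 CPM in the others, and their part was not tested.

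The other 3 genes were lower without Cdkn1b. Pcsk2 was at 9.11 and 79.5 CPM in Cdkn1b+/+ PNA+ and at 6.68 and 66.2 CPM in Cdkn1b+/+ Cd49b+ cells, and between 0.187 and 0.62 CPM in the 4 Cdkn1b-/- LP libraries. Ptpru was at 7.93 and 25.8 CPM and at 9.06 and 18.6 CPM in the same Cdkn1b+/+ populations, and between 1.08 and 1.69 CPM in Cdkn1b-/- LP. Ly6g6e was at 30.3 and 12.5 CPM in Cdkn1b+/+ PNA+ and at 24.8 and 10.1 CPM in Cdkn1b+/+ Cd49b+ cells. It lay between 1.77 and 2.33 CPM in Cdkn1b-/- LP, a span far narrower than that of the Cdkn1b+/+ libraries.

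The fitted log2 fold changes in LP were 8.81 for Klk1c9, 6.67 for Aoc1, 6.39 for Astn2, 4.07 for Sult5a1 and 2.72 for Dpep1, and -6.58 for Pcsk2, -3.20 for Ptpru and -2.94 for Ly6g6e. Among 304 genes with non-overlapping genotypes, an adjusted p under 0.05 and a mean above 2 log2 CPM, ordered by the size of the change, the 8 genes had ranks 1, 2, 4, 10, 29, 3, 21 and 25 in that order. The choice was thus no strict cut: Ctxn3 (5.79), Il1rn (4.82), Hephl1 (4.64), Gp2 (-4.63) and Pigr (4.2) ranked between Astn2 and Sult5a1, and Acsm3 (-2.69) ranked just after Dpep1. In these libraries fewer cells with a transcript and less of it per cell cannot be told apart. With either LP population alone, the difference of mean log2 CPM kept its direction for all 8 genes: it was 4.53 in PNA+ and 3.54 in Cd49b+ cells for Sult5a1, and 3.16 and 2.36 for Dpep1.

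**Figure D1:**
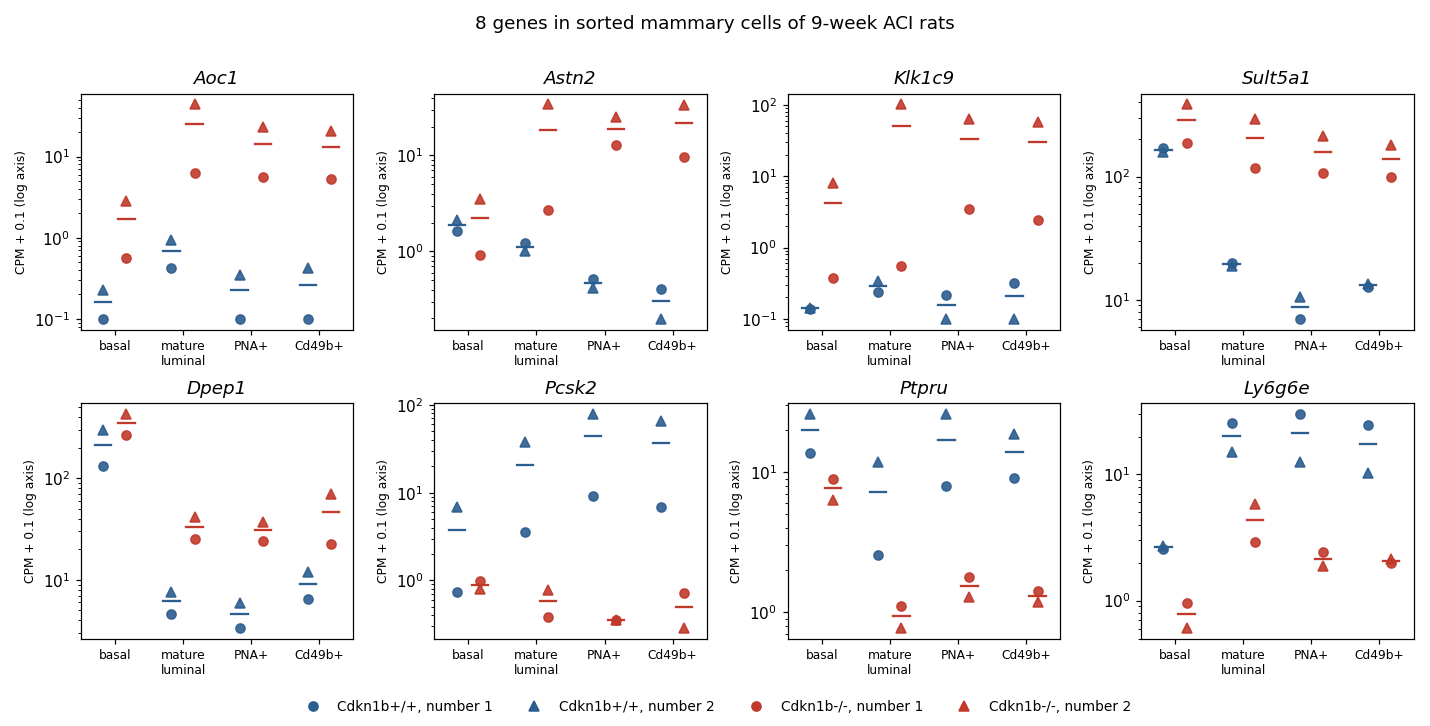
Level of each gene (CPM + 0.1, log axis) in the 16 libraries of 9 weeks, by population, with circles for replicate number 1, triangles for number 2 and bars for the group means. Aoc1, Astn2, Klk1c9, Sult5a1 and Dpep1 lie higher in the Cdkn1b-/- luminal libraries and Pcsk2, Ptpru and Ly6g6e lower, and number 2 stands above number 1 for Klk1c9 in every Cdkn1b-/- population and for Pcsk2 in every Cdkn1b+/+ population.

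No difference between the 2 LP populations was called in these genes. Compared across PNA+ and Cd49b+ libraries with genotype as a covariate, 0 of the 8 genes were called by edgeR, with unadjusted p from 0.119 to 0.994, none under 0.05 and none called by DESeq2. Of all 11725 genes tested, 0% were called by edgeR, 358 had an unadjusted p under 0.05 and DESeq2 called 45. The largest fitted difference was that of Dpep1, -0.67 ± 0.387 on the log2 scale (SE), lower in PNA+ cells.

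A pattern by replicate number ran through all populations of 9 weeks. Klk1c9 in the Cdkn1b-/- libraries with number 2 was 18.9 times its level with number 1 in PNA+ cells, 24.7 times in Cd49b+ cells, 29.6 times in basal cells and 230 times in mature luminal cells. Aoc1 followed in the same libraries, with ratios of number 2 to number 1 from 3.92 to 7.08 over the 4 populations, and so did Astn2 with ratios from 1.92 to 13 and Sult5a1 with ratios from 1.81 to 2.51. Dpep1 was higher with number 2 in all 8 groups of both genotypes, by ratios from 1.55 to 3.14 in Cdkn1b-/- and from 1.68 to 2.26 in Cdkn1b+/+ libraries, and Aoc1 was higher with number 2 in Cdkn1b+/+ libraries as well. Pcsk2 with number 2 was 8.73 to 10.9 times its level with number 1 in all 4 Cdkn1b+/+ populations, Ptpru 1.91 to 4.80 times, and Ly6g6e was lower with number 2 in the 3 luminal populations, by ratios of number 1 to number 2 from 1.71 to 2.46. Over all genes, the deviations of same-numbered libraries from their group means correlated in each of the 12 pairs of populations within a genotype (r = 0.26 to 0.80), and between genotypes r ran from -0.36 to 0.00 over 16 pairs. The labels do not say whether libraries with 1 number came from the same rats, and with 2 numbers per genotype a p-value measures only the spread between these libraries.

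In mature luminal cells, which the choice did not use, all 8 genes had means that differed in the same direction as in LP, with genotypes that did not overlap; of all 12553 genes tested, 29.2% did not overlap there. Aoc1 was at 6.20 and 44.0 CPM without Cdkn1b and at 0.325 and 0.83 CPM with it, and Astn2 at 2.62 and 34.0 CPM against 1.11 and 0.908 CPM. Klk1c9 was at 0.443 and 102 CPM against 0.139 and 0.237 CPM, so that with number 1 alone its genotypes were close. Sult5a1 was at 117 and 294 CPM against 19.9 and 18.6 CPM, and Dpep1 at 25.1 and 41.5 CPM against 4.50 and 7.58 CPM. Sult5a1 had the lowest unadjusted p of the 8.

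Of the 3 lower genes, Pcsk2 was at 0.282 and 0.673 CPM in Cdkn1b-/- and at 3.48 and 37.9 CPM in Cdkn1b+/+ mature luminal cells. Ptpru was at 1.01 and 0.673 CPM against 2.46 and 11.8 CPM, and Ly6g6e at 2.82 and 5.74 CPM against 25.4 and 14.9 CPM. By edgeR, 0 of the 8 genes were called in mature luminal cells; 1 of 12553 genes was called there (0.00797%), and 8 of the 8 genes had an unadjusted p under 0.05, against 638 of all genes tested. Sult5a1 had a log2 fold change of 3.52 ± 0.473 (SE), an unadjusted p of 5.83e-05 and an adjusted p of 0.145, and the adjusted p of the other 7 ranged from 0.582 to 0.756. DESeq2 on the same libraries called 92 genes (0.561%), the 8 among them, with adjusted p from 5.68e-10 for Sult5a1 to 0.0307 for Klk1c9. The 2 tools thus give different calls on fold changes of the same size. The edgeR fit of all 16 libraries called 1 of the 8 genes and 8 genes in all in mature luminal cells. It takes its spread in part from the LP libraries that chose the genes, so its call is a description.

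Mature luminal and LP libraries of the same number and genotype deviated together (r = 0.39 and 0.48 in Cdkn1b-/-, 0.68 and 0.66 in Cdkn1b+/+, with Cd49b+ and PNA+ cells), so the values above are not independent of those that chose the genes. Summed CPM of 8 milk genes (Wap, the caseins, Lalba, Glycam1 and Lpo) also separated the genotypes. It was 106989 to 198298 CPM in the 6 Cdkn1b-/- luminal and LP libraries of 9 weeks and 20718 to 85090 in the 6 Cdkn1b+/+ ones, and a list of 11 LP and alveolar markers, which shares genes with it, was at 102559 to 181915 against 21732 to 82264 CPM. In LP alone the hormone-sensing markers separated the genotypes too, with 194 to 309 CPM without and 471 to 774 CPM with Cdkn1b. The part of these lists in the differences of the 8 genes was not tested. Summed CPM of basal, luminal, lymphoid, myeloid, endothelial, fibroblast, adipocyte and Schwann cell markers overlapped between the genotypes, over LP alone and with the mature luminal libraries. Within PNA+ libraries alone, endothelial markers summed to 130 to 293 CPM without and 507 to 964 CPM with Cdkn1b. Adipocyte (194 to 199 against 443 to 467 CPM), fibroblast (169 to 176 against 588 to 1535 CPM), basal and lymphoid markers were lower there too, without overlap. All of these lists overlapped in Cd49b+ cells, and of them only endothelial markers separated the genotypes in mature luminal cells. Their part was not tested.

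In basal cells at 9 weeks the differences were smaller for most of the genes. Aoc1 was at 0.467 and 2.76 CPM in Cdkn1b-/- basal cells and at 0 and 0.125 CPM in Cdkn1b+/+ basal cells, and Klk1c9 at 0.272 and 8.05 CPM against 0.0379 and 0.0418 CPM. Astn2 overlapped, with 0.817 and 3.45 CPM against 1.52 and 2.05 CPM. Sult5a1 was already high with Cdkn1b, at 169 and 157 CPM, and was at 187 and 385 CPM without it. Dpep1 overlapped, with 268 and 432 CPM without Cdkn1b and 131 and 295 CPM with it. Among the 3 others, Ly6g6e was at 0.856 and 0.506 CPM against 2.46 and 2.63 CPM and Ptpru at 8.87 and 6.25 CPM against 13.7 and 26.1 CPM, both without overlap, and Pcsk2 overlapped at 0.894 and 0.690 CPM against 0.644 and 6.73 CPM.

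None of the 8 was called in basal cells by edgeR, where 0.00797% of genes were called; 4 had an unadjusted p under 0.05 (Aoc1, Klk1c9, Sult5a1 and Ly6g6e), and DESeq2 called 1, Aoc1, at an adjusted p of 0.0154, and 0.476% of all genes. The genotypes of 41.9% of all genes did not overlap in these 4 libraries. Milk genes summed to 25200 and 32689 CPM in the Cdkn1b-/- and to 7343 and 4457 CPM in the Cdkn1b+/+ basal libraries. Adipocyte (325 to 418 against 148 to 192 CPM), myeloid (477 to 560 against 166 to 391 CPM), lymphoid and LP and alveolar markers were also higher without Cdkn1b. Hormone-sensing markers were lower (80.5 to 94.6 against 137 to 201 CPM). These lists did not overlap between the genotypes, and the other marker lists did. Their part in the differences of the 8 genes was not tested. The difference between the genotype effects of mature luminal and basal cells was then tested as an interaction. It passed for 0 of the 8 genes and for 0% of all genes by edgeR, with adjusted p of 1.0 for each. By edgeR 3 had an unadjusted p under 0.05, and DESeq2 called 0 of the 8 and 0.0427% of all genes. Sult5a1 had the largest of these relative to its error, an effect 2.46 ± 0.615 log2 units larger in mature luminal cells (unadjusted p 0.00357). For basal cells, this interaction and the comparisons below, the number of all genes with an unadjusted p under 0.05 is not given. The counts of the 8 genes at that level thus have no share of all genes to be read against.

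The lineages of Cdkn1b+/+ glands differed in 3 of the 8 genes at 9 weeks. Sult5a1 and Dpep1 were lower in mature luminal than in basal cells by log2 fold changes of -2.90 ± 0.461 (SE, adjusted p = 0.00489) and -4.96 ± 0.579 (adjusted p = 0.00127), and Ly6g6e was higher by 3.14 ± 0.470 (adjusted p = 0.00368). By edgeR 13.7% of all genes were called in this comparison, and DESeq2 called 5, adding Aoc1 and Pcsk2, and 15.4% of all genes. With the replicate number alone as a block 4 were called, and with the replicate number within each genotype as a block, an analysis chosen after seeing the data, 6 of the 8 and 29.6% of all genes were called: Aoc1 (higher, adjusted p = 0.00977), Pcsk2 (higher, 0.00211) and Ptpru (lower, 0.0194) were added. Without Cdkn1b, the Sult5a1 level of mature luminal cells and LP (99.2 to 294 CPM over 6 libraries) spanned that of Cdkn1b+/+ basal cells (169 and 157 CPM), whereas Dpep1 in those cells (22.2 to 69.6 CPM) stayed under every basal library of 9 weeks.

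At 4 weeks, 5 of the 7 genes with enough counts differed between luminal and basal cells of Cdkn1b+/+ rats, against 23.5% of all genes. Of these, Dpep1 was at 286, 310 and 312 CPM in basal and at 7.48, 1.75 and 3.60 CPM in luminal cells, and was lower in luminal cells by a log2 fold change of -6.12 ± 0.590 (adjusted p = 1.38e-05). Sult5a1 was at 225, 150 and 121 CPM in basal and 78.1, 27.3 and 43.3 CPM in luminal cells (-1.72 ± 0.506, adjusted p = 0.0252). Both genes had the same direction as at 9 weeks. Ptpru was higher in luminal cells (1.90 ± 0.644, adjusted p = 0.0489), as was Aoc1, which had 1 count over the 3 basal libraries and 0.542 to 1.83 CPM in luminal cells (5.40 ± 1.46, adjusted p = 0.0180). Astn2 was lower (-3.65 ± 1.15, adjusted p = 0.0351), at 0 to 0.496 CPM in luminal against 1.17 to 6.52 CPM in basal cells. Paired within animals, the call of Astn2 was lost (adjusted p = 0.0582), and leaving out WT basal replicate 2 left 1 call, that of Dpep1.

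At 6 weeks, 0 of the 6 tested genes were called between luminal and basal cells by edgeR, where 2.43% of all genes were called; 2 had an unadjusted p under 0.05 and DESeq2 called both, Dpep1 and Pcsk2, and 11.3% of all genes. Dpep1 was at 59.4, 49.5 and 22.8 CPM in Cdkn1b+/+ basal and at 0 and 2.28 CPM in luminal cells. Pcsk2 had 1 count over the 3 basal libraries and was at 13.9 and 5.25 CPM in luminal cells. In the E2 experiment, with strain and treatment as covariates, 0 of the 8 were called between luminal and basal cells by edgeR or DESeq2. By edgeR 1 had an unadjusted p under 0.05. Of all genes, edgeR called 1.66% and DESeq2 12.4%.

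At 4 and 6 weeks edgeR called none of the genes between genotypes, as in mature luminal and basal cells at 9 weeks. Klk1c9 had 0 counts in all 11 libraries of 4 weeks and 8 counts, all in 1 Cdkn1b+/+ basal library, at 6 weeks. Aoc1 had 0 counts in all 9 libraries of 6 weeks, and at 4 weeks it was at 0.0657, 0.896 and 1.29 CPM in Cdkn1b-/- luminal cells against 1.83, 0.542 and 0.564 CPM in Cdkn1b+/+ luminal cells. Sult5a1 was at 88.0, 82.8 and 58.7 CPM against 78.1, 27.3 and 43.3 CPM in luminal cells of 4 weeks, an overlap that was absent at 9 weeks.

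The calls by edgeR were 0 of 7 genes in luminal and 0 of 7 in basal cells at 4 weeks, where 0% of genes were called in both and 0 of the 7 had an unadjusted p under 0.05 in either. DESeq2 called 0 of them at 4 weeks, and 0% of all genes in luminal and 0.0137% in basal cells. At 6 weeks the calls by edgeR were 0 of 6 in luminal and 0 of 6 in basal cells, with 0% of all genes called, and 2 and 1 genes with an unadjusted p under 0.05. DESeq2 called 1 of them in luminal cells at 6 weeks, Pcsk2, where it called 9.66% of all genes. This gene had 0 counts in both Cdkn1b-/- luminal libraries and 13.9 and 5.25 CPM in the Cdkn1b+/+ ones. By counting error alone it was at least 69.2-fold lower, against a floor of 3 counts over both libraries. Genes with a count numbered 12761 and 9241 in those Cdkn1b-/- and 10956 and 11633 in those Cdkn1b+/+ libraries. The bound does not cover a transcript lost from a whole library. The other Cdkn1b+/+ luminal levels of Pcsk2 at 4 weeks were 0, 0.602 and 0.0434 CPM, in the range of Cdkn1b-/- luminal cells (0.788, 0 and 0 CPM). A test of the genotype effect at 6 minus that at 4 weeks called 0 of 7 genes (1.21% of all genes), 2 had an unadjusted p under 0.05, and DESeq2 called Pcsk2 (adjusted p = 0.0209) and 6.49% of all genes.

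Other members differed at 6 weeks without passing the edgeR test. Astn2 in luminal cells had 0 counts in both Cdkn1b-/- libraries and was at 1.21 and 0 CPM in the Cdkn1b+/+ ones, opposite to LP at 9 weeks. Sult5a1 in basal cells was at 121 and 151 CPM without Cdkn1b and at 15.4, 44.2 and 14.9 CPM with it, without overlap (log2 fold change 2.30 ± 0.779, unadjusted p 0.0150, adjusted p 0.474, edgeR). Basal markers summed to 16166 and 17885 CPM in those Cdkn1b-/- and to 6870 to 7542 CPM in the Cdkn1b+/+ libraries, and their part in the difference was not tested. Dpep1 in luminal cells was at 1.36 and 26.6 CPM without Cdkn1b and at 0 and 2.28 CPM with it, its high value lying in the library with the high adipocyte markers. That library also held the most basal markers of the 6-week luminal libraries, 1038 CPM against 66.1 to 144 CPM in the others. Ptpru, lower without Cdkn1b in LP, was at 24.6 and 0 CPM in Cdkn1b-/- luminal cells and at 0.506 and 19.1 CPM in Cdkn1b+/+ ones, so both genotypes held a high and a low library. Ly6g6e, also lower in LP at 9 weeks, was higher in the Cdkn1b-/- luminal libraries of 6 weeks, at 3.53 and 5.38 CPM against 0.101 and 0.380 CPM, a difference that did not pass the test (adjusted p = 0.414). In these luminal libraries other markers separated the genotypes as well: without and with Cdkn1b, endothelial markers summed to 252 and 1494 against 0.303 and 10.1 CPM, myeloid markers to 1136 and 2165 against 168 and 319 CPM and milk genes to 10686 and 34212 against 2056 and 4570 CPM. Their part in the luminal differences of 6 weeks was not tested. At 4 weeks Ptpru (7.36, 9.22 and 30.5 CPM against 7.58, 21.0 and 25.9 CPM) and Ly6g6e (8.08, 1.34 and 4.23 CPM against 2.43, 4.40 and 3.69 CPM) overlapped between genotypes in luminal cells.

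**Figure D2:**
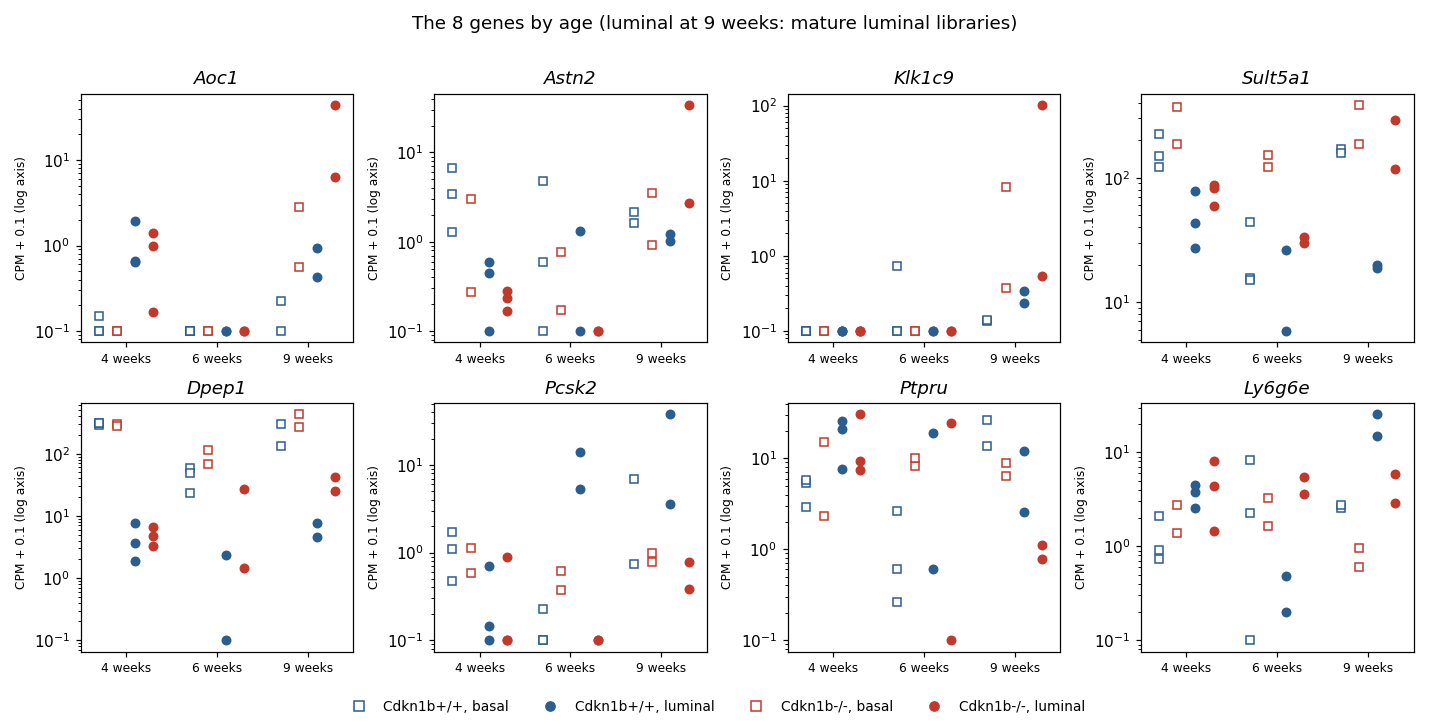
Level of each gene (CPM + 0.1, log axis) at 4, 6 and 9 weeks in basal (open squares) and luminal (filled circles) libraries of both genotypes, with 1 point per library and the mature luminal libraries standing for luminal cells at 9 weeks. At 4 and 6 weeks Aoc1 is at most 1.83 CPM and Klk1c9 at most 0.642 CPM in either genotype, and within each genotype Dpep1 lies higher in basal than in luminal libraries at each age.

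In Cdkn1b+/+ basal cells, Sult5a1 was at 225, 150 and 121 CPM at 4 weeks and lower, at 15.4, 44.2 and 14.9 CPM, at 6 weeks (edgeR log2 fold change -2.56 ± 0.636, adjusted p = 0.0181). It was the only call among 7 genes there, against 10.5% of all genes, and was lost without WT basal 4wk replicate 1 (adjusted p = 0.0663) or WT basal 6wk replicate 1 (0.0612). DESeq2 also called Dpep1 (adjusted p = 0.0140), and 17.6% of all genes. Basal markers summed to 18822 to 21338 CPM in the 4-week and to 6870 to 7542 CPM in the 6-week Cdkn1b+/+ basal libraries, and their part in this difference was not tested. WT basal 4wk replicate 1 came from the 4-week rat whose title carries the lower number, which may be a younger age. Age cannot be told apart here from other differences between the 4- and 6-week sets of libraries, such as their depth. The levels of 9 weeks, 169 and 157 CPM for Sult5a1 in Cdkn1b+/+ basal cells, come from another set of libraries and were not tested against these. In Cdkn1b+/+ luminal cells, 0 of 7 genes were called by edgeR between 6 and 4 weeks (3.10% of all genes); 4 had an unadjusted p under 0.05, and DESeq2 called Pcsk2, Ly6g6e and 11.1% of all genes. Ly6g6e was at 0.101 and 0.380 CPM at 6 weeks and at 2.43 to 4.40 CPM at 4 weeks.

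In the E2 experiment Sult5a1 was the gene detected in all 12 libraries. In ACI luminal cells it was at 9.08 and 4.03 CPM in Control and at 109 and 70.3 CPM in E2 rats, without overlap, and in BN luminal cells at 58.9 CPM in Control and 71.4 CPM with E2. The E2 term over both strains was 2.42 ± 0.862 on the log2 scale, with an unadjusted p of 0.0272 and an adjusted p of 0.999. Pcsk2 was at 4.06 and 18.8 CPM in ACI Control luminal cells and had 0 counts in both ACI E2 luminal libraries and in all BN libraries. By counting error alone, against a floor of 3 counts over the ACI E2 pair, it was at least 143-fold lower there than in ACI Control. Genes with a count numbered 9184 and 11369 in the ACI E2 and 11912 and 12836 in the ACI Control luminal libraries. Dpep1 was at 131 CPM in ACI E2 luminal replicate 1, the library with the highest fibroblast markers among luminal ones (6743 CPM), and at 0 in replicate 2. Klk1c9 had counts in 1 of the 12 libraries (2.20 CPM, ACI E2 luminal replicate 1) and Aoc1 reached 3.92 CPM in ACI E2 luminal replicate 2. Milk genes summed to 11041 and 93739 CPM in ACI E2 luminal and to 7060 and 5322 CPM in ACI Control luminal libraries, and hormone-sensing markers to 378 and 89.3 against 1004 and 1029 CPM. Their part in the differences of Sult5a1 and Pcsk2 was not tested.

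By edgeR, E2 called 0 of 7 genes in luminal cells (2 with an unadjusted p under 0.05) and 0 of 6 in basal cells (0 under 0.05), and 0% of all genes in each. DESeq2 called 0 of the 8 in either, and 1.25% of all genes in luminal and 0.826% in basal cells. Between strains, Ptpru was the gene most apart. It was at 16.3, 20.1, 6.44 and 14.0 CPM in the 4 ACI luminal libraries and had 0 counts in both BN luminal libraries. By counting error alone, against a floor of 3 counts, BN was at least 152-fold lower among Control and 86.0-fold lower among E2 libraries. The BN Control luminal library also stood apart in markers, with 20.5 CPM of hormone-sensing markers, 6 of the 9 genes at 0, against 1004 and 1029 CPM in ACI Control, and 1999 CPM of basal markers against 60.3 and 588 CPM. The part of these in the strain difference was not tested. In basal cells the BN libraries did hold Ptpru, at 0.784 and 3.52 CPM, and 2 of the 4 ACI basal libraries had 0 counts. The edgeR test of strain called 0 of 7 genes in luminal cells (0% of all genes; Ptpru at an unadjusted p of 0.00543 and an adjusted p of 0.985) and 0 of 6 in basal cells (0% of all genes). In luminal cells 3 had an unadjusted p under 0.05 and DESeq2 called Ptpru, Dpep1 and 3.27% of all genes. In basal cells 0 had an unadjusted p under 0.05, and DESeq2 called none of them and 0.195% of all genes. Each BN group was a single library, so the strain has no replicate within a treatment.

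**Figure D3:**
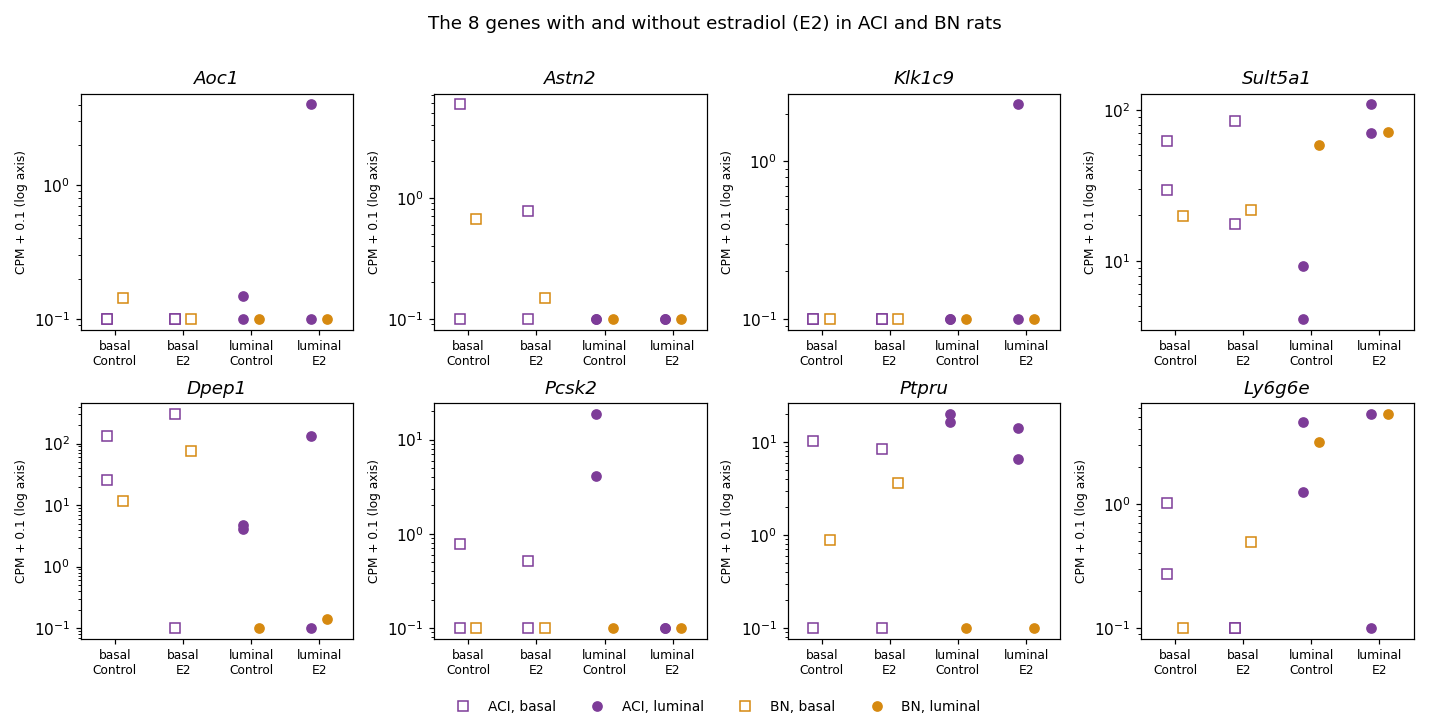
Level of each gene (CPM + 0.1, log axis) in the 12 libraries of the E2 experiment, by cell type and treatment, with 1 point per library coloured by strain. Sult5a1 lies at 70.3 to 109 CPM in the ACI E2 luminal libraries and at 4.03 to 9.08 CPM in the ACI Control ones, among luminal libraries Pcsk2 has counts in those of ACI Control rats alone, and Ptpru has none in BN luminal cells.

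Sult5a1 and Dpep1 are neighbours on chromosome 19 of build GRCr8, on opposite strands, which raised the question of whether the genes around them differed as well. In LP, Cpne7, on the far side of Sult5a1, was at 2.52 ± 0.985 CPM without and 1.90 ± 0.668 CPM with Cdkn1b (SD, n = 4), and Chmp1a, on the far side of Dpep1, at 84.7 ± 5.41 and 84.3 ± 12.1 CPM. Both flanking genes overlapped between the genotypes. One gene further out, Rpl13, a ribosomal protein gene, was at 466 ± 37.2 and 675 ± 88.0 CPM and Spata33 at 2.11 ± 0.319 and 4.13 ± 1.69 CPM, both lower without Cdkn1b and without overlap. Around Klk1c9, the counted neighbours Klk1c2, Klk1c8, Klk1 and Klk1c3 were at or under 0.0411 CPM in LP of either genotype, so reads were assigned to Klk1c9 and hardly to its close relatives; reads matching several relatives equally were not counted on any. Around Ly6g6e, the family neighbours Ly6g6d (2.40 and 2.14 CPM) and Ly6g6c (1.81 and 1.59 CPM) overlapped between the genotypes in LP. Aoc1 lies between Tmem176a, which was lower without Cdkn1b (79.8 ± 21.8 and 145 ± 13.9 CPM), and Doxl1, a related amine oxidase gene at 0 and 0.0111 CPM. Near Astn2, Tnc was higher without Cdkn1b (25.7 ± 3.16 and 8.03 ± 1.88 CPM), and near Pcsk2, Dstn was lower (166 ± 37.2 and 255 ± 10.7 CPM), both without overlap. The other counted neighbours of Astn2 and Pcsk2 and those of Ptpru overlapped. Of all genes with enough counts, 17.8% did not overlap in LP.

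**Figure D4:**
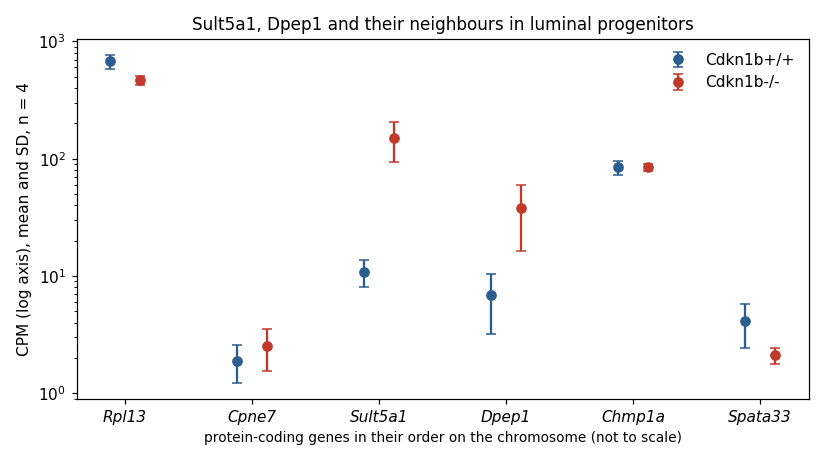
Mean level (CPM, log axis) and SD of the 4 LP libraries per genotype for Sult5a1, Dpep1 and the counted protein-coding genes next to them in chromosomal order. Sult5a1 (150.0 and 10.9 CPM) and Dpep1 (38.3 and 6.84 CPM) differ between Cdkn1b-/- and Cdkn1b+/+ cells while Cpne7 and Chmp1a overlap.

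The families of the 8 genes were followed through lists chosen with earlier results known. Between genotypes at 9 weeks, edgeR called none of the tested genes of any of the 8 lists in mature luminal or basal cells: 18 of 20 genes of polyamine and histamine metabolism, 9 of 17 sulfotransferases and their cofactor enzymes, 15 of 17 dipeptidases and glutathione or leukotriene enzymes, 4 of 22 kallikreins, 9 of 12 proprotein convertases and partners, 18 of 20 receptor tyrosine phosphatases, 13 of 28 Ly6 genes and both astrotactins were tested. Their median log2 fold changes in mature luminal cells lay between -0.15 and 0.10 for the 6 lists other than kallikreins (2.46) and astrotactins (1.94), where all genes tested had a median of 0.03. These medians of the 2 small lists include Klk1c9 and Astn2 themselves.

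By lineage, edgeR called genes of each list in Cdkn1b+/+ cells of 4 weeks, where 23.5% of all genes were called, and the counts include the 8 genes themselves. Of the sulfotransferases, 5 were lower and 1 was higher in luminal than in basal cells, of 8 tested. Sult1d1 had the largest change (-9.42 ± 0.635, adjusted p = 2.58e-06), larger than that of Sult5a1, and Sult2b1, a cholesterol sulfotransferase, was higher (3.06 ± 0.785, adjusted p = 0.0121). All 4 tested kallikreins (Klk7, Klk8, Klk9 and Klk10) were lower in luminal cells, with log2 fold changes from -6.46 to -5.79. Of 11 tested convertases and partners, 4 were lower, among them Cpe, the carboxypeptidase that trims prohormones (-6.02 ± 0.491, adjusted p = 5.58e-06), and Scg5, the chaperone of proprotein convertase 2 (-5.25 ± 0.565, adjusted p = 3.13e-05). Scg5 was also lower in mature luminal cells at 9 weeks (-5.20 ± 0.500, adjusted p = 0.000527), where Pcsk2 itself was not called (2.69 ± 1.23, adjusted p = 0.194). Of 11 tested Ly6 genes 4 were higher in luminal cells, led by Lypd1 (3.58 ± 0.492, adjusted p = 0.000173), and of 16 receptor phosphatases 5 were lower and 2 higher. At 9 weeks, where 13.7% of all genes were called, Ly6g6d, the neighbour of Ly6g6e, was higher in mature luminal cells too (3.82 ± 0.766, adjusted p = 0.0135), and 5 receptor phosphatases were lower, led by Ptprt (-5.85 ± 0.437, adjusted p = 0.000248).

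Across the 24 group means, centred within each experiment, the genes most like each member were found among 10197 genes by Pearson's r, given as a description. Dpep1 was most like Wnt10a and Col17a1 (r = 0.93 each), Col17a1 being a collagen of the basal cell attachment. Ptpru was most like Msl1 (0.89), Ly6g6e like Tmed10 (0.81), Sult5a1 like Anxa5 (0.75), Klk1c9 and Aoc1 like Tnfaip2 (0.74 and 0.73), Pcsk2 like Alk (0.73) and Astn2 like Gnb4 (0.67). Among the 8, Aoc1 and Klk1c9 were the closest pair (r = 0.92), and Pcsk2 ran opposite to Sult5a1 (-0.69), the groups of 9 weeks that chose them included. Sult5a1 and Dpep1, though neighbours, had r = 0.37.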

How the data were processed

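Gene counts of 48 libraries were taken as deposited: per the paper's methods and the submitters' processing notes, the authors aligned single-end reads of SMARTer low-input libraries to rn6 with STAR 2.5.1b and counted reads on 17356 UCSC refGene genes with HTSeq, leaving out reads that align to several places. Between 47.1% and 77.0% of a library's reads were not on genes and stayed out of library sizes. CPM were computed from the counts on genes. Genes with low counts were removed by edgeR's filter, and counts were tested with edgeR 4.0.16 (quasi-likelihood test, TMM scaling, Benjamini-Hochberg adjustment over all genes tested, threshold 0.05) in R 4.3.3, after the code was tested on simulated data. DESeq2 1.42.0, the authors' tool, was an alternative, beside other scalings, no filter, other sets of libraries, replicate blocks and leaving out each library. Blocks by number within a genotype and by crossed numbers were chosen after seeing the data.

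The 8 genes and the family and marker lists were chosen with earlier results of these data known. All 8 genes are named in every comparison; from each family list up to 5 genes past the threshold by size of change; for each gene the 3 most like it over 24 groups (log2 CPM with a prior count of 2), of which the first is printed for most; and the genes next to the 8 in rank in LP. Libraries of 4 and 6 weeks and of ACI rats name animals, and the deviations of basal and luminal libraries of 1 animal had r = 0.11 to 0.62 over 5 pairs at 4 weeks. At 6 weeks r was -0.01 to 0.09 and in the E2 experiment 0.08 to 0.20, where the pairs of a group with 2 libraries share their value by construction. No 2 replicates agreed within sampling noise. Counting error alone is covered by floors of 3 counts. Progesterone receptor ChIP peaks were not used here.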

Additional observations from a re-analysis of the deposited data

Results flagged for a closer look

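Pcsk2 in the 4 Cdkn1b-/- LP libraries was at 0.62 and 0.187 CPM in Cd49b+ cells and at 0.251 and 0.257 CPM in PNA+ cells. The highest library lay apart from the other 3, with a gap of 0.838 of the whole range, just above Dixon's critical value for 4 samples. It was 1 of 16 groups examined in this way, in the LP libraries that chose the genes. Chance alone sets apart about 1 in 20 groups of independent values. That rate need not hold here, since same-numbered Cdkn1b-/- PNA+ and Cd49b+ libraries deviated together (r = 0.63). The values rest on 21, 5, 7 and 8 counts.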

How the results depend on the processing

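No alternative run turned the direction of a called value of the 8 genes. By DESeq2 the number called was 8 for genotype in mature luminal cells and 1 in basal cells at 9 weeks, 5 for mature luminal against basal cells, 1 for genotype in luminal cells at 6 weeks, 2 for luminal against basal cells at 6 weeks, 1 for the 6 minus 4 weeks effect, 2 for Cdkn1b+/+ luminal and 2 for basal cells between 6 and 4 weeks, and 2 for strain in luminal cells. Fitting all 16 libraries of 9 weeks, the LP libraries that chose the genes included, called 1 in mature luminal cells. Fitting 20 libraries of 4 and 6 weeks called 1 in luminal cells of 6 weeks. With no filter 2 were called in basal cells between 6 and 4 weeks. Leaving out 1 library gave 1 to 4 calls for lineage at 4 weeks and 0 to 1 for basal cells between 6 and 4 weeks. Runs that left 1 library in a group also moved the number for genotype in luminal cells at 6 weeks and for the 6 minus 4 weeks effect. Their counts are not given. The cause was not tested. Calls over all genes are not given for the runs without 1 library, so whether these changes are particular to the 8 cannot be read from them. Ptpru at 4 weeks had an adjusted p of 0.0901 with library size alone.

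With the number within each genotype as a replicate block, mature luminal against basal cells gave 6 calls in place of 3 (4 with the number alone), and the animal as a replicate block left 4 at 4 weeks; blocks changed no other call of the 8. Crossed numbers gave 0, 0, 0 and 3 calls of the 8 and 2, 3, 0 and 2736 of all genes for genotype in mature luminal and basal cells, their difference and lineage.

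Over all genes, DESeq2 called 92 against 1 gene by edgeR in mature luminal and 78 against 1 in basal cells at 9 weeks, 7 against 0 for their difference, 45 against 0 between LP populations, 2 against 0 in basal cells at 4 weeks, 1410 and 414 against 0 in luminal and basal cells at 6 weeks, 1652 against 290 for lineage at 6 weeks, 979 against 152 for the 6 minus 4 weeks effect, 1672 against 390 and 2653 against 1320 with age in luminal and basal cells, 1818 against 221 for lineage in the E2 experiment, and 177, 465, 110 and 26 against 0 for E2 and strain in luminal and in basal cells. With no filter the counts were 2 and 4 at 9 weeks, 54, 8 and 451 at 6 weeks and 1 for strain in luminal cells; with 20 libraries 1103 and 217 at 6 weeks; with all 16 libraries 8 and 6 at 9 weeks; with the compared libraries alone 1 in basal cells at 6 weeks; with library size alone 0 in mature luminal cells. Blocks gave 3710 against 1725 (number within genotype), 0 and 0 for genotype at 9 weeks (number) and 143 against 290 (animal, 6 weeks).

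Groups of 2 libraries and levels under 1 CPM limit most comparisons of Aoc1, Klk1c9 and Astn2 outside 9 weeks. ChIP peaks near the 8 genes were not run, since gene positions of build rn6 were not used here.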

Other observations

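Aoc1 lies on chromosome 4 of build GRCr8, as does Cdkn1b, and the other 7 genes lie on chromosomes 1, 3, 5, 19 and 20. The distance between Aoc1 and Cdkn1b was not measured, so whether they are closely linked is not stated here. The deletions were made in Sprague-Dawley zygotes and bred to ACI. The deletion and any Sprague-Dawley sequence left on this or another chromosome cannot be told apart in the level of any of these genes.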
